A study of Mus musculus with 10 samples.

Results

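Nuclear genes for subunits of the mitochondrial respiratory chain were compared, complex by complex, in livers of NASH-diet-fed mice that lack Lpcat3 in hepatocytes and of mice that keep it. Members were chosen by gene symbol and not by any change in level. The symbols were those starting with Ndufa, Ndufb, Ndufc, Ndufs or Ndufv, Sdha to Sdhd, Uqcr, Cyc1, Cycs, Cox4i to Cox8, or Atp5, without assembly factors, pseudogenes and the ATP synthase inhibitor. A member also needed 10 or more counts in at least 5 of the 10 libraries. Of 27179 genes in the table, 94 carried such a symbol, of which 5 were pseudogenes and 9 had too few counts. The remaining 80 members held 40 genes of complex I, 3 of complex II, 8 of complex III, the carrier gene Cycs, 11 of complex IV and 17 of complex V. All 80 members had 10 or more counts in all 10 libraries, and all 80 passed the filter on low counts and were tested.

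The LKO group held 5 male C57BL/6 mice with floxed Lpcat3 alleles (Lpcat3f/f) and the Albumin-Cre transgene, in which the albumin promoter drives Cre recombinase in hepatocytes. The control group held 5 male C57BL/6 mice with the same floxed alleles and no Cre named in the labels. Both groups received a NASH diet, which produces nonalcoholic steatohepatitis, for 12 weeks, and the labels name no age. Total RNA of whole liver gave 1 library per mouse, so hepatocytes were measured together with every other liver cell, and fewer hepatocytes cannot be told apart from less RNA per hepatocyte.

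The respiratory chain lies in the inner mitochondrial membrane. Complex I takes electrons from NADH and complex II takes them from succinate, coenzyme Q carries them to complex III, cytochrome c carries them to complex IV, and complex IV passes them to oxygen. Proton pumping by complexes I, III and IV drives ATP synthase, also called complex V. Most subunits are encoded in the nucleus and a small set in mitochondrial DNA, so each complex except complex II is assembled from the products of both genomes. Hepatocytes are rich in mitochondria and use this chain to complete the oxidation of fatty acids.

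Total counts per library lay between 26914124 in control 4 and 46727182 in control 5. Lpcat3 had 25.5 to 38.5 TMM-scaled CPM in the LKO libraries, against 94.1 to 124 CPM in the control libraries, and the groups did not overlap. On the first principal component of all tested genes, which held 59.4% of the variance, LKO libraries lay at -8.2 to 69.2, with LKO 3 farthest out. Control 4 lay at 24.1, among the LKO libraries, while the other 4 controls lay at -41.2 to -24.7. LKO 3 also held transcripts known from fat, with 647 counts of Ucp1, 339 of Adipoq and 294 of Plin1, where no other library had more than 5 counts of any of these genes. The sample titles add a code, A54, A55 or A67, of which A54 alone is found in LKO and control mice, and no label explains it. Because LKO 3 and control 4 stand apart, medians and calls of the members, and medians of the complexes and the supporting gene lists, are given with and without each. Among the lists of cell type markers this was done for hepatocyte and recruited macrophage markers only, and the others are given as levels.

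No nuclear subunit of any complex passed the test for a difference between LKO and control livers. Of the 80 members, 0 had an adjusted p under 0.05, against a background of 0.0657% of 15226 genes tested (edgeR quasi-likelihood test, two-sided, Benjamini-Hochberg over all genes). DESeq2 also called 0 members, against 7.79% of all genes, and limma voom 0, against 16.2%. The lowest edgeR adjusted p of a member was 0.233, for Ndufv3. Without adjustment, 0 of 80 members had a p under 0.05 in edgeR, against 22.3% of all genes, while DESeq2 gave 1 and limma voom gave 7. That 0 was not stable in edgeR, which gave 12 without control 4, 10 without control 4 and LKO 3, and 16 with total-count scaling. The share of all genes was taken only for edgeR with all libraries and TMM scaling. In 0 of 80 members did all 5 LKO libraries lie on one side of all 5 control libraries, against 3.95% of all genes.

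The median log2 fold change of the members was -0.08, against -0.00 over all genes. Of the 80 members, 66 had a log2 fold change below 0 and 14 above 0, while 50.5% of all genes were below 0. Scaling to total counts moved the median of all genes to 0.24 and that of the members to 0.16, with 79 of 80 above 0, so the direction turned with that scaling while the members stayed below the median of all genes. The 95% interval lay within a 1.5-fold change either way for 77 of 80 members and within 2-fold for 78, with standard errors of 0.09 to 0.48 on the log2 scale (median 0.13). The log2 fold change was within 0.25 of 0 for 78 of 80 members and for 59.9% of all genes. Among genes with a mean of at least 10 CPM this was so for 75 of 75 members and for 72.6% of 7864 genes.

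**Figure D1:**
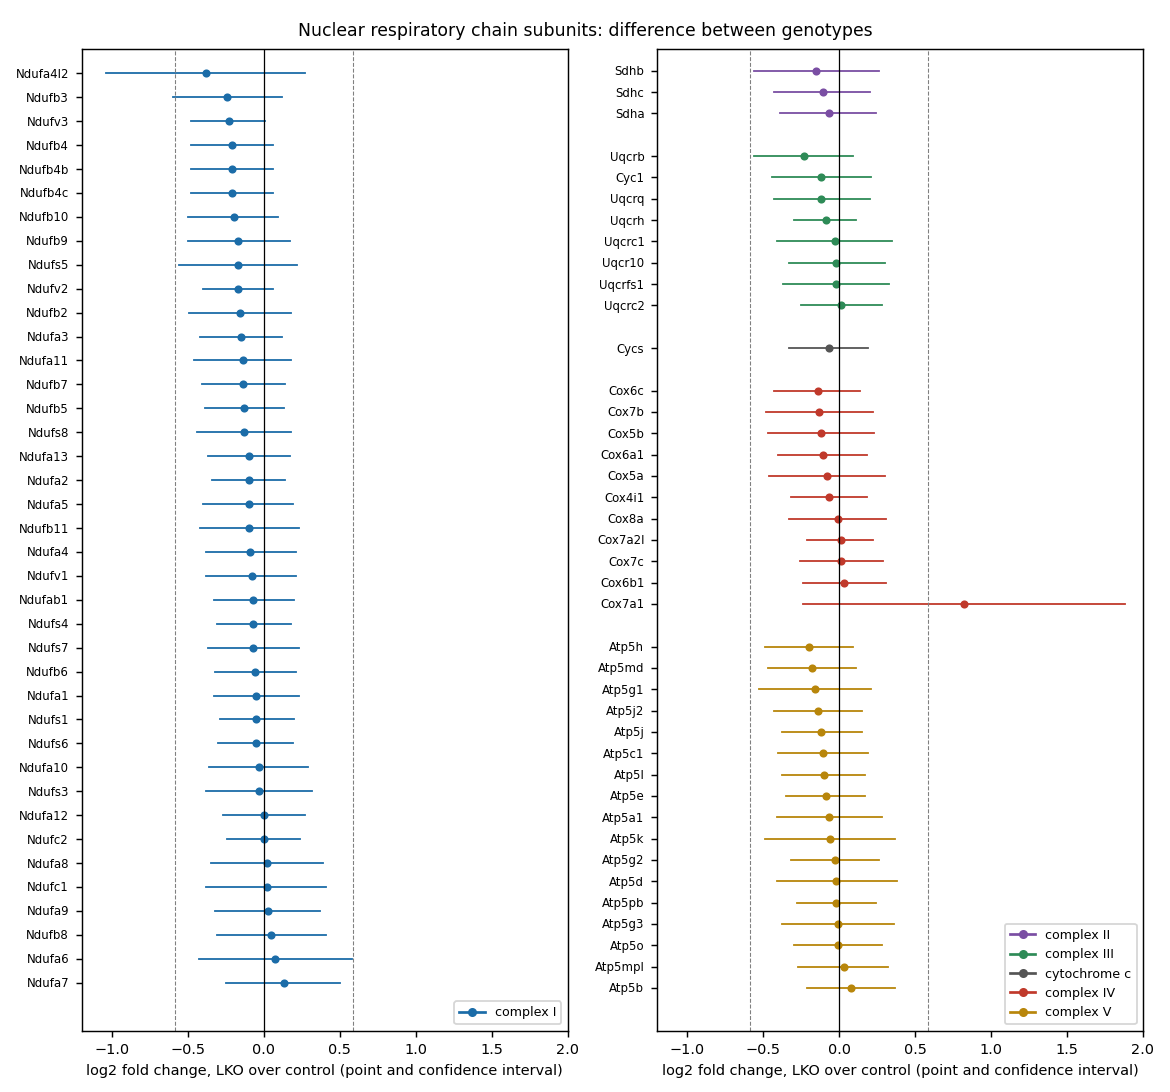
Fitted log2 fold change, LKO over control, of 79 of the 80 members by complex, with 95% intervals from edgeR (5 LKO and 5 control livers), dashed lines marking a 1.5-fold change. All intervals include 0, and 77 of 79 points lie within 0.25 of 0, Cox7a1 (0.82) and Ndufa4l2 (-0.38) being the others. With total-count scaling 79 of 80 fold changes were above 0.

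On TMM-scaled CPM, the members varied together from library to library, within both groups. LKO 3 was the lowest LKO library for 77 of 80 members, against 33.4% of all genes. Control 4 was the lowest control library for 77 of 80 members, against 31.7% of all genes, and both held at once for 74 members, against 19.2%. The exceptions were Ndufb5, Cox7a1 and Atp5e among LKO libraries and Ndufa6, Ndufa8 and Atp5mpl among control libraries. These ranks rest on the TMM scaling and were not taken with total-count scaling. The scaling factor was 1.286 for LKO 3 and 0.9804 to 1.144 for the other LKO libraries. It was 1.154 for control 4 and 0.8325 to 0.9203 for the other controls, and a higher factor lowers the CPM of a library. The mean over all members, in log2 units relative to the control mean, was 0.01, 0.06, -0.44, 0.11 and -0.14 in LKO 1 to 5, against 0.15, 0.12, 0.03, -0.36 and 0.07 in control 1 to 5.

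Markers of most liver cell types differed in the same libraries. For Kupffer cell markers neither library stood apart, and for endothelial markers control 4 did not. Summed hepatocyte markers (15 of 15 tested) were at 70400 CPM in LKO 3 and 74000 to 99000 CPM in the other LKO libraries, against 80200 CPM in control 4 and 120000 to 132000 CPM in the other controls. Recruited macrophage markers (13 of 13 tested) were at 1030 CPM in LKO 3 and 281 to 577 CPM in the other LKO libraries, against 579 CPM in control 4 and 103 to 159 CPM in the other controls. Cholangiocyte markers (7 of 7 tested) reached 383 CPM in LKO 3 and 231 CPM in LKO 5, against 174 CPM in control 4 and 36.6 to 40.6 CPM in the other controls. Most of that sum was Spp1, a gene also in the macrophage list, with 316 CPM in LKO 3 and 190 CPM in LKO 5, against 145 CPM in control 4. The 6 other cholangiocyte markers summed to 67.2 CPM in LKO 3, 40.6 CPM in LKO 5 and 13.9 to 19.6 CPM in the other LKO libraries, against 29.4 CPM in control 4 and 13.4 to 22.0 CPM in the other controls. LKO 3 and control 4 were the lowest of their groups for hepatocyte markers and the highest for macrophage markers. Hepatocyte markers had a median log2 fold change of -0.48 (15 of 15 below 0), -0.41 without LKO 3 and -0.60 without control 4. Recruited macrophage markers had one of 1.32 (13 of 13 above 0), 0.92 without LKO 3 and 2.21 without control 4. Of these lists edgeR called 0 genes with all libraries and without LKO 3. Without control 4 it called 5 of 15 and 12 of 13, against 15.0% of all genes. With all libraries DESeq2 called 3 of 15 hepatocyte and 3 of 13 macrophage markers, against 7.79% of all genes. In limma voom with all libraries these counts were 7 of 15 and 11 of 13, against 16.2%. Stellate cell and myofibroblast markers (11 of 11 tested) were at 1310 CPM in LKO 3 and 583 to 940 CPM in the other LKO libraries, against 901 CPM in control 4 and 401 to 523 CPM in the other controls. Kupffer cell markers (10 of 10 tested) were at 343 to 550 CPM in LKO libraries, with 421 CPM in LKO 3. In control libraries they were at 267 to 363 CPM, with 342 CPM in control 4. Endothelial markers (9 of 9 tested) were at 434 to 676 CPM in LKO libraries, lowest in LKO 3. In control libraries they were at 455 to 527 CPM, with 456 CPM in control 4. Lymphocyte and neutrophil markers (10 of 13 tested) were at 11.5 to 22.9 CPM in LKO libraries, against 9.68 to 15.9 CPM in control libraries. None of these markers was at 0 in all libraries, and the part of cell makeup in the members' levels was not tested.

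Leaving out either library moved the members without giving a call. Without LKO 3 the median log2 fold change of the members was -0.01, with 45 below 0 and 35 above 0, and 0 were called, against 0.0719% of all genes. Without control 4 it was -0.16, with 75 below 0 and 5 above 0. Then 0 members were called, against 15.0% of all genes, and the lowest edgeR adjusted p was 0.0655, for Ndufb4. Ndufb3, Ndufv3, Ndufb10, Ndufv2 and Atp5h then had all 5 LKO values below the 4 remaining control values, which is 5 of 80 members against 19.1% of all genes. Without both, the median was -0.09 and the lowest edgeR adjusted p was 0.0557, so 0 members were called, against 15.6% of all genes.

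The 5 complexes had similar median log2 fold changes, and differences between complexes were not tested. The medians were -0.09 for complex I (33 below 0, 7 above), -0.11 for complex II (3 below 0, 0 above), -0.06 for complex III (7 below 0, 1 above), -0.07 for complex IV (7 below 0, 4 above) and -0.07 for complex V (15 below 0, 2 above). Scaled to total counts, they were 0.15, 0.12, 0.18, 0.17 and 0.17 in that order, beside the median of 0.24 over all genes. Without LKO 3 they were -0.02, -0.01, 0.02, 0.03 and 0.03, and without control 4 they were -0.17, -0.19, -0.13, -0.14 and -0.15. With the title code as a covariate they were -0.10, -0.12, -0.13, -0.18 and -0.13. Only code A54 holds both groups, so the genotype term of that fit rests on LKO 1, LKO 2 and control 1. It is therefore no separate check from the A54 values that follow. Within code A54, the mean of LKO 1 and LKO 2 minus the single control, control 1, was -0.10, -0.18, -0.14, -0.18 and -0.12 log2 units, with no replicate of that control.

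Summed over its members, complex I had 1610 ± 233 CPM in LKO livers and 1730 ± 224 CPM in control livers (SD, n = 5 each). Complex II had 588 ± 101 CPM in LKO livers and 627 ± 91.4 CPM in control livers. The differences between groups were smaller than 1 SD, and the same held for the 3 other complexes. Complex III had 783 ± 120 CPM in LKO livers and 834 ± 110 CPM in control livers. Complex IV had 901 ± 120 CPM in LKO livers and 939 ± 120 CPM in control livers. Complex V, the most abundant set by summed level, had 2220 ± 349 CPM in LKO livers and 2280 ± 297 CPM in control livers.

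**Figure D2:**
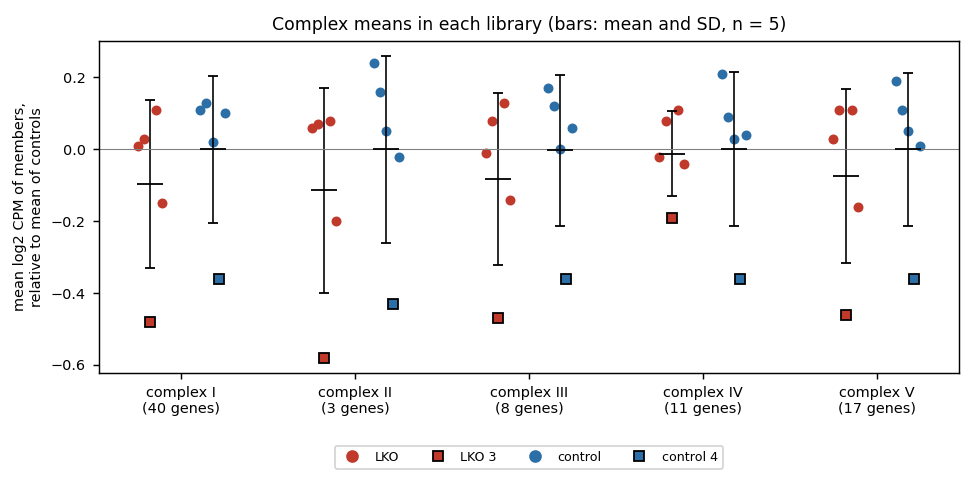
Mean log2 CPM over the members of each complex in each library, relative to the mean of the control libraries, with group mean and SD (n = 5 LKO and 5 control); squares mark LKO 3 and control 4. With TMM scaling, LKO 3 is the lowest LKO library and control 4 the lowest control library in each of the 5 complexes, and the groups overlap.

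LKO 3 lay at -0.48 for complex I, -0.58 for complex II, -0.47 for complex III and -0.46 for complex V, but at -0.19 for complex IV. The smaller value for complex IV came with a single member, Cox7a1, since the mean of the 10 other complex IV members in LKO 3 was -0.43. Control 4 lay at -0.36 for complexes I, III, IV and V and at -0.43 for complex II.

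No gene of the catalytic core of complex I passed the test. Ndufs1 (NCBI Gene 227197), which carries iron-sulfur clusters of the NADH-oxidising arm, had 103, 95.5, 71.9, 102 and 84.7 CPM in LKO 1 to 5, against 95.2, 95.9, 102, 79.8 and 99.2 CPM in control 1 to 5. LKO 3 and control 4 were the lowest of their groups, and the groups overlapped, with a log2 fold change of -0.05 (SE 0.11; edgeR adjusted p = 0.816). Ndufv1, the flavin-bearing subunit where NADH is oxidised, had 91.8, 94.1, 64.5, 94.3 and 89.7 CPM in LKO 1 to 5, against 109, 96.2, 91.7, 69.9 and 92.6 CPM in control 1 to 5. Its log2 fold change was -0.08 with all libraries, 0.00 without LKO 3 and -0.17 without control 4. Ndufs3, Ndufs7, Ndufs8 and Ndufv2, core members which also hold or contact redox centres, had log2 fold changes of -0.03, -0.07, -0.13 and -0.17. The lowest edgeR adjusted p among these core genes was 0.338, for Ndufv2.

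Accessory subunits of complex I, which surround and stabilise the core, spanned a wider range. Ndufv3, a small accessory subunit of the NADH-oxidising arm, had 52.5, 47.7, 35.9, 49.8 and 44.4 CPM in LKO 1 to 5, against 57.9, 56.8, 56.2, 44.9 and 55.2 CPM in control 1 to 5. Every LKO library was below controls 1, 2, 3 and 5, and control 4 lay within the LKO values. Its log2 fold change was -0.23 (SE 0.11; edgeR adjusted p = 0.233). Ndufb3, a membrane-arm subunit, had 34.6, 36.8, 23.4, 37.0 and 29.7 CPM in LKO 1 to 5, against 40.2, 41.9, 40.2, 25.4 and 42.9 CPM in control 1 to 5, the same arrangement with control 4 inside the LKO range. Its log2 fold change was -0.24 (SE 0.16; edgeR adjusted p = 0.389). At the upper end, Ndufa7 had a log2 fold change of 0.13 (95% interval -0.25 to 0.50) and Ndufa6 one of 0.07 (95% interval -0.43 to 0.58). Ndufa6 was thinly counted, at 3.54 ± 0.939 CPM in LKO livers and 3.37 ± 0.858 CPM in control livers.

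Ndufa4 was placed with complex I by its name, although its protein is known today as a subunit of complex IV. It averaged 55.5 ± 8.76 CPM in LKO livers and 58.9 ± 8.41 CPM in control livers (log2 fold change -0.09, SE 0.13). Its paralog Ndufa4l2, a gene induced by hypoxia in other settings, had only 22 to 64 counts per LKO library, against 27 to 65 per control library. Ndufa4l2 had the lowest fold change of all members, -0.38 on the log2 scale, but with a 95% interval of -1.04 to 0.27. Without LKO 3 it was -0.21 and without control 4 it was -0.53.

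Ndufb4, Ndufb4b and Ndufb4c had near-identical counts. In every library Ndufb4b held 90.3% to 93.7% and Ndufb4c 90.6% to 93.8% of the counts of Ndufb4, and Ndufb4c held 99.9% to 101% of those of Ndufb4b. The 3 genes shared a log2 fold change of -0.21, which is therefore uncertain for each of them. Ndufs5 is uncertain in the same way, since the pseudogene Ndufs5-ps held 95.0% to 97.4% of its counts.

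Complex II, which is also the succinate dehydrogenase of the citric acid cycle, had the 3 members Sdha, Sdhb and Sdhc. Sdha, the flavoprotein that oxidises succinate, had 452, 434, 304, 490 and 409 CPM in LKO 1 to 5, against 481, 474, 460, 341 and 443 CPM in control 1 to 5. LKO 3 and control 4 were again lowest, the groups overlapped, and the log2 fold change was -0.07 (SE 0.15; edgeR adjusted p = 0.783). Sdhb, the iron-sulfur subunit, averaged 87.1 ± 17.4 CPM in LKO livers and 96.8 ± 23.4 CPM in control livers. Sdhc, a membrane anchor, averaged 83.0 ± 15.5 CPM in LKO livers and 89.8 ± 12.1 CPM in control livers. The other anchor gene, Sdhd, was no member, with 1 to 5 counts per LKO library and 0 to 3 per control library.

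In complex III, the redox subunits and the core proteins had fold changes near 0. Uqcrfs1, the Rieske iron-sulfur protein, had 45.3, 52.5, 30.5, 54.6 and 41.2 CPM in LKO 1 to 5, against 51.8, 49.8, 42.8, 34.8 and 47.8 CPM in control 1 to 5. LKO 4 was the highest and LKO 3 the lowest of all 10 libraries, and the log2 fold change was -0.02 (SE 0.16; edgeR adjusted p = 0.957). Cyc1, cytochrome c1, averaged 45.4 ± 8.48 CPM in LKO livers and 49.2 ± 8.07 CPM in control livers. The core proteins Uqcrc1 and Uqcrc2 had log2 fold changes of -0.03 and 0.01. Uqcrb, a small subunit near the coenzyme Q site, was the lowest member of this complex, with 220, 204, 156, 240 and 186 CPM in LKO 1 to 5, against 238, 236, 284, 173 and 254 CPM in control 1 to 5. Its log2 fold change was -0.23 (95% interval -0.56 to 0.09; edgeR adjusted p = 0.360). The groups overlapped, with LKO 3 the lowest of all 10 libraries and control 3 the highest. Uqcr11 was no member, with 0 to 1 counts per LKO library and 0 in every control library.

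Cycs, the gene of cytochrome c itself, had 124, 125, 104, 141 and 118 CPM in LKO 1 to 5, against 125, 118, 141, 105 and 154 CPM in control 1 to 5. LKO 3 and control 4 were nearly equal at the low end, and the log2 fold change was -0.07 (SE 0.12; edgeR adjusted p = 0.743).

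**Figure D3:**
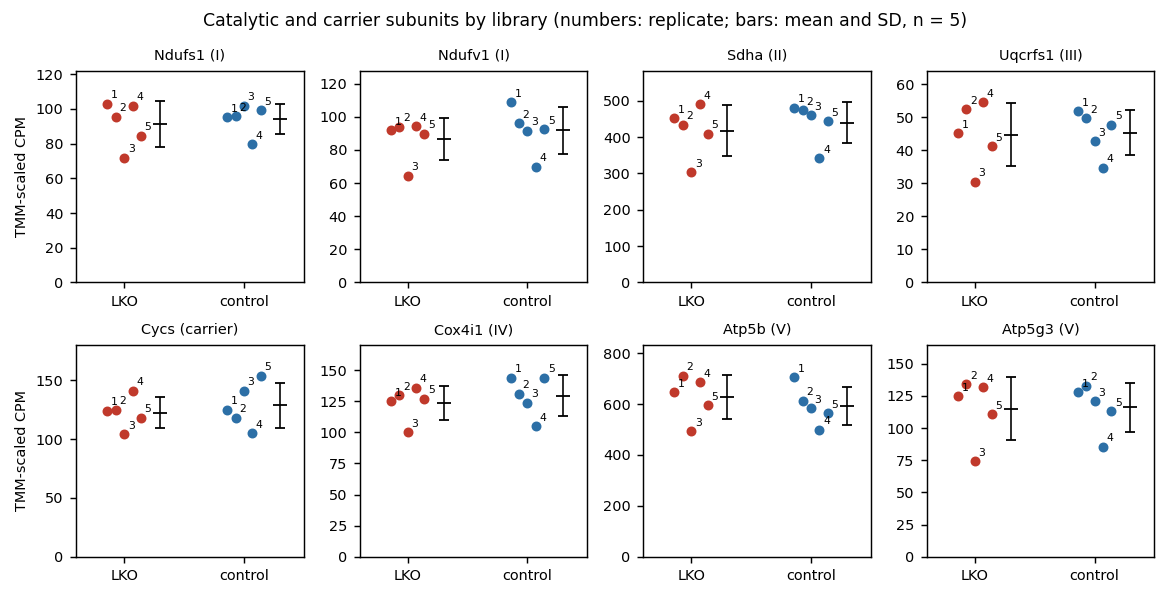
TMM-scaled CPM of 8 catalytic and carrier genes in each of 5 LKO and 5 control libraries, numbered by replicate, with mean and SD. In each panel the groups overlap and replicate 3 is the lowest LKO library, and control 4 is the lowest control library.

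Complex IV is the member set with tissue-specific isoforms. Cox4i1, the general form of subunit 4, had 125, 130, 100, 136 and 127 CPM in LKO 1 to 5, against 144, 131, 124, 105 and 144 CPM in control 1 to 5. The groups overlapped, with a log2 fold change of -0.07 (SE 0.11; edgeR adjusted p = 0.733). The general forms Cox6a1, Cox6b1 and Cox8a had log2 fold changes of -0.11, 0.03 and -0.01, and Cox7a2l, which takes part in joining complexes III and IV into supercomplexes, had one of 0.01. The lowest were Cox6c at -0.14 and Cox7b at -0.13, both small structural subunits. All of these had edgeR adjusted p-values of 0.527 or more.

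Cox7a1, the form of subunit 7a used in heart, skeletal muscle and brown fat, was the exception in size. It had 0.785, 0.929, 4.55, 0.891 and 1.67 CPM in LKO 1 to 5, against 1.47, 0.878, 0.877, 0.806 and 0.977 CPM in control 1 to 5. LKO 3 alone was far above the rest, and LKO 1 was the lowest of all 10 libraries. The log2 fold change was 0.82 (SE 0.48; edgeR adjusted p = 0.324) with all libraries and 0.09 without LKO 3. Other isoforms of muscle and brown fat that fell short of the count rule were also highest in LKO 3. Cox8b had 102 counts there, against at most 5 in any other library, and Cox6a2 had 27 counts, against at most 11 in any other library. Transcripts of brown and white fat were high in the same library, with Ucp1 at 17.3 CPM, Adipoq at 9.07 CPM and Plin1 at 7.86 CPM. The muscle gene Ckm had 1 count and Acta1 had 0 counts in LKO 3, Myh1 and Myh4 had 0, and Tnnt3 had 1. Myl1, also a muscle gene, went the other way, with 25 counts in LKO 3, against at most 5 in any other library. Of the 10 muscle and adipose markers, only Cidea passed the filter on low counts, and it had 15.1 CPM in LKO 3, the lowest of the LKO libraries.

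**Figure D4:**
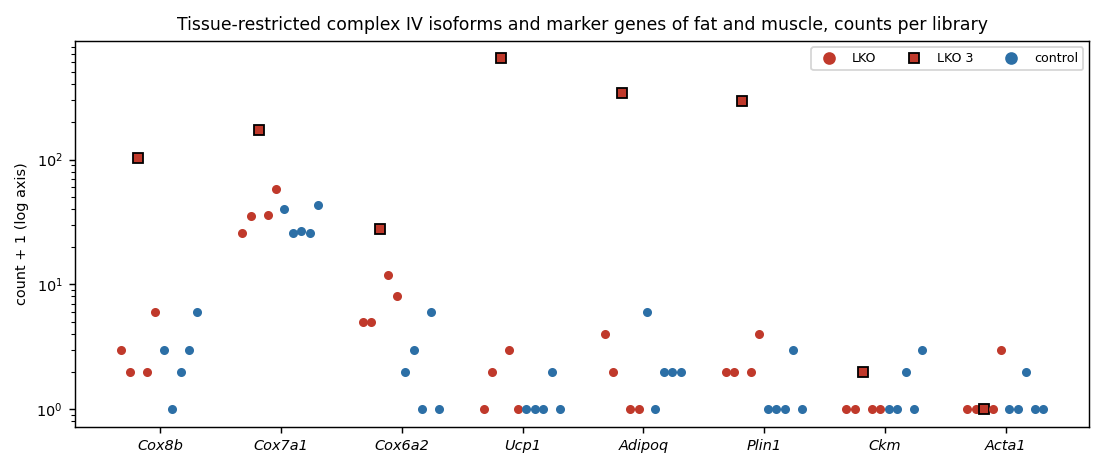
Counts plus 1 on a log axis for tissue-restricted complex IV isoforms (Cox8b, Cox7a1, Cox6a2), fat markers (Ucp1, Adipoq, Plin1) and muscle markers (Ckm, Acta1) in 5 LKO and 5 control libraries, with LKO 3 as squares. LKO 3 stands above all other libraries for the isoforms and the fat markers drawn, with 647 counts of Ucp1, and not for Ckm or Acta1. Of the markers not drawn, the muscle gene Myl1 was also highest in LKO 3, with 25 counts, against at most 5 in any other library. Cidea, also not drawn, was lowest in LKO 3 among the LKO libraries.

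The remaining complex IV genes that fell short had at most 16 counts in any library. Cox4i2, a form known from lung, had 1 to 11 counts per LKO library, with 11 in LKO 3 and 10 in LKO 5, and 0 to 8 per control library. Cox6b2 had 16 counts in LKO 3, against at most 5 in any other library. Cox7b2 and Cox8c, known from testis, had at most 1 count per LKO library and at most 2 per control library. Cox7a2, the general form of subunit 7a, had 0 to 7 counts per LKO library and 0 to 9 per control library. Sdhd, Uqcr11 and Cox7a2 encode subunits that mitochondria of most tissues hold, and no source used here says how reads of near-identical copies were counted. A floor of 3 counts equals 0.0698 to 0.113 CPM, depending on the library, and covers counting error only.

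In complex V, no gene of the rotor or head of ATP synthase passed the test. Atp5b, the catalytic beta subunit, had 647, 712, 494, 685 and 595 CPM in LKO 1 to 5, against 705, 613, 584, 500 and 564 CPM in control 1 to 5. LKO 2 was the highest and LKO 3 the lowest of all 10 libraries, and its log2 fold change of 0.08 (SE 0.13; edgeR adjusted p = 0.747) was the highest of this complex. Atp5a1, the alpha subunit, averaged 668 ± 121 CPM in LKO livers and 701 ± 96.4 CPM in control livers, and Atp5c1, the gamma subunit, 162 ± 25.2 CPM in LKO livers and 175 ± 23.9 CPM in control livers. Their log2 fold changes were -0.07 and -0.11. The membrane ring of c subunits is encoded by 3 genes that give the same mature protein. Atp5g1 averaged 38.9 ± 8.99 CPM in LKO livers and 43.6 ± 7.39 CPM in control livers, and Atp5g2 averaged 27.4 ± 4.04 CPM in LKO livers and 28.0 ± 4.44 CPM in control livers. Atp5g3 averaged 115 ± 24.6 CPM in LKO livers and 116 ± 18.7 CPM in control livers. Per kilobase of transcript, Atp5g3 was the highest of the c-subunit genes, at 160 CPM per kilobase in LKO livers and 161 in control livers. Atp5g2 followed at 46.7 in LKO livers and 47.7 in control livers, and Atp5g1 at 14.6 in LKO livers and 16.3 in control livers. Atp5h, a subunit of the peripheral stalk, was lowest, with 130, 132, 97.8, 135 and 105 CPM in LKO 1 to 5, against 143, 143, 153, 102 and 147 CPM in control 1 to 5. All LKO values were below controls 1, 2, 3 and 5, control 4 lay within them, and the log2 fold change was -0.20 (SE 0.13; edgeR adjusted p = 0.382). Atp5md followed at -0.18, and Atp5mpl, at 11.8 ± 2.23 CPM in LKO livers and 11.6 ± 0.799 CPM in control livers, had a log2 fold change of 0.03.

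Set per length of transcript, members of 1 complex differed far more from each other than between groups. Complex I, with a length for 38 of 40 members, had a median of 36.9 CPM per kilobase in LKO livers and 37.5 in control livers. Its highest member was Ndufs6 at 154 CPM per kilobase in LKO livers and 160 in control livers, and its lowest was Ndufa4l2 at 1.28 in LKO livers and 1.67 in control livers. Complex III ranged up to Uqcrb, at 377 CPM per kilobase in LKO livers and 443 in control livers, and down to Cyc1, at 29.9 in LKO livers and 32.4 in control livers. Complex IV had the highest median, 127 CPM per kilobase in LKO livers and 132 in control livers. Complex V had a median of 64.0 in LKO livers and 68.8 in control livers, with Atp5b highest at 327 in LKO livers and 310 in control livers. Transcript lengths were annotated medians and not measured in these livers, so these levels are approximate.

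The subunits encoded in mitochondrial DNA had lower fold changes than the nuclear ones, and edgeR called 0 of them with all libraries. All 13 had a log2 fold change below 0, with a median of -0.45 (-0.22 with total-count scaling), and 7 had an unadjusted p under 0.05, against 9.5% of all genes in that direction, and 0 had an edgeR adjusted p under 0.05. DESeq2 called 6 of the 13, all lower, against 7.79% of all genes, and limma voom called 8, all lower, against 16.2%. Without control 4 edgeR called 2 (ND4 and ND6, both lower), against 15.0%, and without LKO 3 it called 0. The 7 complex I genes had a median of -0.58, CYTB of complex III had -0.52, the 3 complex IV genes had a median of -0.31 and the 2 complex V genes one of -0.45. The nuclear medians beside these were -0.09, -0.06, -0.07 and -0.07. Without LKO 3 the mitochondrial medians were -0.59, -0.45, -0.23 and -0.36, and without control 4 they were -0.57, -0.59, -0.41 and -0.53.

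ND6, encoded on the other strand of mitochondrial DNA from the rest of these subunits, had the lowest p. It had 840, 550, 571, 512 and 494 CPM in LKO 1 to 5, against 978, 1040, 905, 921 and 754 CPM in control 1 to 5. LKO 1 alone lay above the lowest control, control 5, and the log2 fold change was -0.63 (SE 0.16; edgeR adjusted p = 0.104). ND4 was lowest in fold change, with 5060, 3150, 3200, 2620 and 2850 CPM in LKO 1 to 5, against 6390, 6190, 6220, 5700 and 4250 CPM in control 1 to 5. Here too LKO 1 was the one LKO library above the lowest control, and the log2 fold change was -0.77 (SE 0.21; edgeR adjusted p = 0.112). Without LKO 1 the mitochondrial genes ND6 and ND4L had an edgeR adjusted p of 0.0396, in a fit that called 0.558% of all genes and 0 of 80 nuclear members.

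Within complex I, the mean of the nuclear members minus that of the mitochondrial genes was 0.09, 0.61, 0.14, 0.81 and 0.57 log2 units in LKO 1 to 5, against 0.03, 0.04, -0.13, -0.27 and 0.34 in control 1 to 5, both relative to the control mean. LKO 2, 4 and 5 lay above every control, and LKO 1 and LKO 3 lay below control 5. The LKO mean of this difference was 0.45 ± 0.31 in complex I, 0.45 ± 0.28 in complex III, 0.28 ± 0.18 in complex IV and 0.39 ± 0.22 in complex V, around a control mean of 0 with SDs of 0.23, 0.22, 0.16 and 0.15 (n = 5 each). No test was run on these differences.

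**Figure D5:**
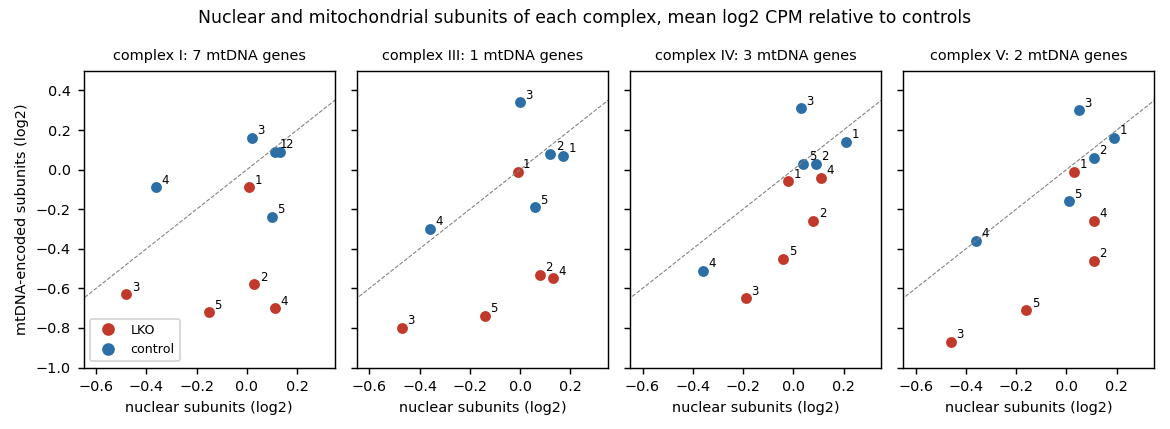
Mean log2 CPM of mitochondrial-DNA-encoded subunits against that of nuclear subunits for complexes I, III, IV and V in each library, both relative to the control mean, numbered by replicate; the dashed line marks equal values. All 5 LKO libraries lie below the line in each panel, LKO 1 by only 0.01 log2 units in complex III. Control libraries lie on both sides of it by construction, since both axes are relative to the control mean.

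Among 54 tested factors that assemble or inhibit the complexes, edgeR called 0 with all libraries and 0 without LKO 3, and most fold changes were slightly below 0. Without control 4 edgeR called 5, against 15.0% of all genes, with Ndufaf4, Ndufaf6, Cox16 and Coa5 lower and Atpif1 higher. DESeq2 called Ndufaf4, Cox16 and Coa5, against 7.79% of all genes, and limma voom called these and Atpif1, against 16.2%. Of 16 tested assembly factors of complex I, 11 had a log2 fold change below 0 (median -0.14), and of 23 of complex IV, 19 did (median -0.14). The medians were -0.04 for 4 factors of complex II, -0.10 for 6 of complex III and 0.03 for 5 of complex V. Scaled to total counts, the medians for complexes I and IV were 0.10 and 0.10, beside 0.24 over all genes. For complexes I to V the medians were -0.08, 0.04, -0.04, -0.08 and 0.05 without LKO 3 and -0.19, -0.10, -0.17, -0.15 and 0.01 without control 4. In these lists the groups did not overlap for 3 of 54 genes, or 5.56%, near the 3.95% of all genes, and the genes are named for their small p. Ndufaf4, needed early in building complex I, averaged 23.7 ± 1.66 CPM in LKO livers and 31.4 ± 3.83 CPM in control livers (log2 fold change -0.41; edgeR adjusted p = 0.0944). Cox16, which acts in the assembly of the COX2 subunit, averaged 13.7 ± 0.923 CPM in LKO livers and 17.4 ± 1.78 CPM in control livers (-0.34; edgeR adjusted p = 0.106). Coa5, an assembly factor of complex IV, averaged 58.6 ± 3.76 CPM in LKO livers and 69.7 ± 3.32 CPM in control livers (-0.25; edgeR adjusted p = 0.112). Atpif1, the inhibitor of reverse ATP synthase activity, averaged 24.5 ± 5.28 CPM in LKO livers and 17.4 ± 4.66 CPM in control livers (0.49; edgeR adjusted p = 0.175).

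The regulators of these genes had 0 calls in edgeR with all libraries, without LKO 3 and without control 4, and 0 in DESeq2 and limma voom. Of 13 nuclear regulators, a list with Nrf1, the GABP genes and the estrogen-related receptors, 11 had a log2 fold change below 0 (median -0.16, or -0.13 without LKO 3, -0.15 without control 4 and 0.09 with total-count scaling), 0 had an unadjusted p under 0.05 and the lowest edgeR adjusted p was 0.266. Esrra, the gene of estrogen-related receptor alpha, averaged 13.5 ± 2.35 CPM in LKO livers and 15.8 ± 1.48 CPM in control livers. Esrrg had 6.41, 3.58, 0.722, 2.01 and 2.55 CPM in LKO 1 to 5, against 4.76, 5.87, 4.18, 4.87 and 6.33 CPM in control 1 to 5, so that LKO 1 was the highest of all libraries and the other 4 LKO libraries were below every control (log2 fold change -0.77; edgeR adjusted p = 0.291). Of 15 genes for transcription and replication of mitochondrial DNA, 11 were below 0 (median -0.12, or -0.07 without LKO 3, -0.18 without control 4 and 0.13 with total-count scaling). The same 5 fits called 0 of them. Tfam, which packs that DNA and helps to start its transcription, averaged 21.8 ± 2.85 CPM in LKO livers and 24.0 ± 1.94 CPM in control livers. Polrmt, the RNA polymerase that transcribes that DNA, averaged 13.7 ± 1.10 CPM in LKO livers and 16.0 ± 1.53 CPM in control livers (-0.22; edgeR adjusted p = 0.201).

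Around coenzyme Q, 9 of 13 synthesis genes were below 0 (median -0.07, or -0.01 without LKO 3, -0.11 without control 4 and 0.17 with total-count scaling). With all libraries and without LKO 3 edgeR called 0 of them, and without control 4 it called Coq10a, against 15.0% of all genes. DESeq2 (against 7.79% of all genes) and limma voom (against 16.2%) each called Coq10a and Coq8b. The groups did not overlap for these 2 of 13 genes, against 3.95% of all genes. Coq8b, a kinase-like gene of this pathway, had all LKO values above all control values, at 11.9 ± 0.842 CPM in LKO livers and 9.93 ± 0.195 CPM in control livers (log2 fold change 0.26; edgeR adjusted p = 0.123). Coq10a, a coenzyme Q binding protein gene, lay the other way, with all LKO values below all control values, at 8.89 ± 0.895 CPM in LKO livers and 11.3 ± 1.26 CPM in control livers (-0.34; edgeR adjusted p = 0.129). Of 8 other genes that feed electrons to coenzyme Q, 6 were below 0 (median -0.06, or 0.02 without LKO 3, -0.09 without control 4 and 0.18 with total-count scaling). Prodh, which oxidises proline, averaged 88.7 ± 35.4 CPM in LKO livers and 158 ± 51.8 CPM in control livers (-0.83; edgeR adjusted p = 0.175). It was the only gene of that list of 8 called without control 4 in edgeR (adjusted p = 0.0396), against 15.0% of all genes. In limma voom with all libraries it was again the only one, against 16.2%, while DESeq2 called 0, against 7.79%. Of 6 supercomplex factors, a list that shares Cox7a2l, Ndufa4 and Ndufa4l2 with the members, 4 were below 0 (median -0.10, or -0.01 without LKO 3, -0.17 without control 4 and 0.14 with total-count scaling). With all libraries and without LKO 3 edgeR called 0 of them, while without control 4 it called Mcub, higher in LKO livers, as did DESeq2 and limma voom. The shares of all genes called were 15.0%, 7.79% and 16.2% in that order. Mcub encodes a subunit of the mitochondrial calcium uniporter, which is not a supercomplex factor, and averaged only 0.626 ± 0.217 CPM in LKO livers and 0.283 ± 0.0704 CPM in control livers.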

How the data were processed

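Livers of 5 LKO and 5 control mice gave 1 bulk RNA library per mouse. Ribosomal RNA was removed from total RNA of frozen liver, stranded libraries were pooled, and fragments were read from 1 end on a single lane, per the labels' protocols. The deposited table holds whole-number counts per gene and library, not normalized. Tools named in the submitters' processing notes are bcl2fastq 2.20 and DESeq2, with GRCm39 as the genome build, while no source used here names an aligner, a counter, a strand setting or an annotation. Values of genes with near-identical copies are therefore uncertain. All 10 columns were matched to samples by name, and symbols for 25275 of 27179 NCBI Gene numbers came from a RefSeq table of GRCm38.p6.

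Counts were analysed in R 4.3.3 with edgeR 4.0.16 (filterByExpr, TMM scaling, quasi-likelihood F test with the legacy option, genotype as the only term, two-sided). Benjamini-Hochberg adjustment ran over all 15226 tested genes, and a call needed an adjusted p under 0.05. Such p-values reflect the spread among these 10 libraries. CPM values are TMM-scaled. Levels per kilobase used the median length of annotated protein-coding transcripts. The standard error of a fold change was derived from its F statistic. The steps were tested on simulated counts. The alternatives were other scalings and filters, DESeq2 1.42.0, limma 3.58.1 voom with quality weights, edgeR without the legacy option, a replicate block, a title code term, each library left out, a threshold of 0.1, and other definitions of the complexes. Leaving out control 4 with LKO 3, and leaving out Ndufb4b with Ndufb4c, were added after seeing the data. Figures were drawn with matplotlib 3.10.9.

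The members, gene lists and tests were chosen with earlier results of these data known. Named genes were picked by role (the redox core, the alpha, beta, gamma and c subunits, the isoform families) and, per complex, as the 2 highest and 2 lowest fold changes, with up to 3 genes of each supporting list by smallest p. Genes outside this rule, such as Ndufv3, Ndufb4, Ndufb10, ND4L, Spp1 and the fat and muscle markers, were named after their values were seen. The values of 1 member are not reported here, although it is counted among the 80.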

Additional observations from a re-analysis of the deposited data

Results flagged for a closer look

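In 54 values examined in both groups, 108 groups of 5 libraries in all, 13 had a library far from the other 4 (its gap to the nearest library over the whole range of the group was above Dixon's 95% critical value). Chance alone does so in about 1 of 20 groups, and the values share libraries, so they are not independent. Control 4 was the library in 8 of the 13 and LKO 3 in 4.

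Control 4 was far below the other controls in the complex I mean (-0.36 log2 units relative to the control mean) and in 7 subunit genes. These were Ndufs3 (30.0 CPM), Ndufb3 (25.4 CPM), Sdha (341 CPM), Uqcrc2 (147 CPM), Cox6b1 (70.9 CPM), Cox6c (92.3 CPM) and Atp5h (102 CPM). LKO 3 was far below the other LKO libraries for Ndufv1 (64.5 CPM). It was far above them for the isoform genes Cox7a1 (4.55 CPM), Cox8b (2.73 CPM) and Cox6a2 (0.722 CPM), which are used in muscle or brown fat. Control 1 was far above the other controls for Cox7a1 (1.47 CPM). Of these genes, Ndufs3, Sdha, Uqcrc2 and Cox6b1 belong to the redox core, the core proteins or the general isoforms of their complexes. On TMM-scaled CPM, the low values of control 4 were therefore not limited to small accessory subunits. Control 4 had the highest scaling factor of the controls, 1.154, and these flags were not repeated with total-count scaling.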

How the results depend on the processing

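The count of members with an adjusted p under 0.05 was 0 under every alternative run, with a lowest adjusted p of 0.0557 (edgeR without control 4 and LKO 3). The count of all genes called, 10, was far less stable. It was 31 with no filter on low counts, 20 with at least 1 CPM in 5 libraries and 2 with the replicate block. It was 2363 without control 4 and LKO 3 together, 1186 in DESeq2 and 2460 in limma voom. Leaving out 1 library gave 2 to 2296, the highest without control 4. With the title code the log2 fold change of Lpcat3 was -1.99 and it was no longer called. Genes called in the supporting lists, 0 at first, were 1 (Idh2) with no filter. They were 53 without control 4 and LKO 3 together (beside 15.6% of all genes), 30 in DESeq2 (beside 7.79%) and 56 in limma voom (beside 16.2%). With 1 library left out they were 0 to 49, with 49 without control 4 (beside 15.0%) and 3 without LKO 1 (ND4L, ND6 and Idh2). The lists share genes and their total was not counted, so these counts are not given as a share. Members whose groups did not overlap were 0 to 5 with 1 library left out, 5 without control 4. Scaled to total counts, the medians of complexes I, III, IV and V were 0.15, 0.18, 0.17 and 0.17, above 0 because that scaling moved the median of all genes to 0.24. The causes of the other changes were not tested. For 101 named genes, 1924 of 2113 alternative values kept their direction and side of the threshold or moved by less than 1 SD, 70 moved by more, 118 passed the threshold where they had not, and 1 lost it.

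Same-numbered LKO and control libraries did not deviate together (correlations of 0.48, 0.24, -0.29, -0.44 and -0.03, and 1 of 5 LKO libraries closest to its own number), so the numbers are no pairing. With the replicate block 0 members were called, and the lowest adjusted p was 0.305. The 95% intervals match an unadjusted p of 0.05, and with 5 mice a group a call after adjustment over all genes needed a larger change. Idh2, at a log2 fold change of 0.63 (SE 0.10), was not called (edgeR adjusted p = 0.0521). The absence of calls therefore does not show that the members were unchanged. The least precise member was Cox7a1 (SE 0.48), in which LKO 3 had 4.55 CPM and the other libraries at most 1.67 CPM.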

Other observations

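Of 14 genes of the citric acid cycle, which supplies NADH and succinate to the chain, 6 had a log2 fold change below 0 and 8 above 0. Their median was 0.03, or 0.09 without LKO 3, -0.02 without control 4 and 0.27 with total-count scaling, and its difference from that of the members was not tested. With all libraries and without LKO 3 edgeR called 0 of them, and it called Idh2 without control 4, as did DESeq2 and limma voom. The shares of all genes called were 15.0%, 7.79% and 16.2% in that order. Idh2, the mitochondrial isocitrate dehydrogenase that makes NADPH, had 141, 143, 137, 146 and 154 CPM in LKO 1 to 5, against 90.8, 89.0, 78.3, 118 and 89.6 CPM in control 1 to 5. Every LKO library was above every control, control 4 was the highest control, and the log2 fold change was 0.63 (SE 0.10; edgeR adjusted p = 0.0521). Mdh2, which oxidises malate, averaged 81.7 ± 4.06 CPM in LKO livers and 70.2 ± 6.79 CPM in control livers (0.22; edgeR adjusted p = 0.163).

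Of 10 genes for mitochondrial carriers and outer membrane proteins, 6 were below 0 and 4 above 0 (median -0.05, or -0.03 without LKO 3, -0.08 without control 4 and 0.19 with total-count scaling). With all libraries and without LKO 3 edgeR called 0, as did DESeq2. Ucp2 and Slc25a4 were called by edgeR without control 4, against 15.0% of all genes, and by limma voom, against 16.2%. Ucp2, an uncoupling protein gene known to be high in macrophages, had 28.8, 36.2, 36.6, 31.0 and 32.2 CPM in LKO 1 to 5, against 18.5, 16.0, 15.4, 36.8 and 16.4 CPM in control 1 to 5. Control 4 was the highest of all 10 libraries and the other 4 controls were below every LKO library (log2 fold change 0.68; edgeR adjusted p = 0.142). Slc25a4, the ADP/ATP carrier form of heart and muscle, averaged 8.54 ± 3.65 CPM in LKO livers and 4.92 ± 1.90 CPM in control livers, with 14.9 CPM in LKO 3 (0.79; edgeR adjusted p = 0.175).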
